A study of Mus musculus with 6 samples.

Results

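The ceramide and sphingolipid enzyme genes are 10 genes whose enzymes make ceramide from palmitoyl-CoA and serine or turn it into other lipids. They were chosen by gene symbol, with earlier results of these data known, and all 10 were found among the 54532 genes of the deposited count table. RNA was sequenced from cultured AML12 cells, a line derived from mouse hepatocytes, with the genotype given as WT. One group of 3 libraries was labelled PP, at 250 µg/ml for 24 h, and the other group of 3 PA/OA, the modelling reagent of the study, at 400 nM and 800 nM for 24 h. The series title names peptides of Camellia oleifera meal and lipid metabolism, and the labels do not say whether PP cells also received PA/OA. Untreated cells were not analysed here, so each difference is between PP and PA/OA and not against an untreated state.

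Ceramide is the hub of sphingolipid metabolism. Serine palmitoyltransferase joins serine to palmitoyl-CoA in the endoplasmic reticulum, a reductase follows, ceramide synthases attach a fatty acyl chain, and a desaturase completes ceramide. Ceramide then goes to the Golgi, where it becomes sphingomyelin or glucosylceramide, and lysosomal hydrolases return these lipids to ceramide and to sphingosine. In liver, ceramide made from surplus palmitate is known for its link to impaired insulin signalling, and the acyl chain length that a ceramide synthase prefers matters for that link.

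Total counts ran from 27418502 to 32560589 in PP libraries and from 24113169 to 26825673 in PA/OA libraries. Whether the libraries of each group came from different cultures is not stated, so the p-values speak of the spread among libraries, and that spread may be technical. The epithelial marker Krt8 was at 1994 CPM in PP and 1775 CPM in PA/OA cells. Of the hepatic markers, Hnf4a was at 26.9 CPM in PP and 71.7 CPM in PA/OA cells. CPM are counts relative to library size, scaled here with TMM, which aligns the bulk of genes between libraries. Foxa2 was at 42.4 CPM in PP and 31.1 CPM in PA/OA cells. Alb, the albumin gene, was at 9.90 CPM in PP and 12.2 CPM in PA/OA cells. Other hepatocyte genes were low in both groups. Apoe had 2.4 CPM in PP and 4.5 CPM in PA/OA cells, Apoa1 2.7 and 2.0, and Ttr 0.77 and 1.45. Cebpa had 0.048 CPM in PP and 0.643 CPM in PA/OA cells, and Serpina1a, which was not tested, 0.25 and 0.155. The hepatocyte list summed to 3678 to 4046 CPM in PP and 2796 to 3004 CPM in PA/OA libraries. Nearly all of that sum was the epithelial keratin genes Krt8 and Krt18, so it says little of hepatocyte genes as such. Of the 10 genes of the hepatocyte list 9 were tested, with 3 higher (Krt8, Krt18 and Foxa2) and 4 lower (Hnf4a, Apoe, Alb and Cebpa). Cebpa held 0, 4 and 0 counts in the PP libraries and passed the filter on low counts only through its PA/OA counts. It thus had to be lower in PP, and its call is no result. The groups of Alb overlapped, and its call was close to the threshold (adjusted p = 0.0489, edgeR). Of all genes tested, 35.1% were higher and 39.9% lower in PP. The cholangiocyte list, led by Krt19, summed to 3833 to 4252 CPM in PP and 2337 to 2473 CPM in PA/OA libraries with 3 of 4 genes higher and its marker Epcam at 0. The macrophage list summed to 26.6 to 29.5 CPM in PP and 3.13 to 3.79 CPM in PA/OA libraries, nearly all of it Cd68, a lysosomal protein gene, with 1 of 5 genes higher and Adgre1 and Clec4f at 0. Stellate cell markers summed to at most 5.32 CPM and endothelial markers to at most 1.50 CPM in any library. The part of such markers in the results below was not tested.

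Of the 10 enzyme genes, 6 were higher in PP (Sptlc2, Cers6, Asah1, Smpd1, Ugcg and Sgms1), 1 was lower (Sptlc1) and 3 did not pass the test (Cers2, Cers5 and Degs1). Calls rest on quasi-likelihood F-tests in edgeR, with p-values adjusted after Benjamini and Hochberg over all 15718 genes tested and a threshold of 0.05. Most genes differed between these groups: 75.0% of all genes tested passed, 35.1% as higher and 39.9% as lower in PP, so 7 of 10 is a share near the background. The median log2 fold change (PP minus PA/OA) of the 10 genes was 0.29, and that of all genes tested was -0.09. A change of at least 2-fold was found for Sptlc1 and Asah1, 2 of 10, where 36.6% of all genes tested changed that much. The values of the groups did not overlap for 7 of the 10 genes, against 77.4% of all genes tested. In bulk samples fewer cells of a type and less RNA per cell cannot be told apart.

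Several of these calls depend on how libraries are scaled. Relative to TMM, the log2 fold change of the median gene shifted by -0.435 with library size only and by -0.238 with upper-quartile scaling. Removal of the trend of fold changes with abundance shifted genes by different amounts, with a median shift of 0.154 over genes. Over all genes, 3235 were then higher and 8910 lower by library size and 4241 higher and 7688 lower by upper quartile, against 5510 higher and 6275 lower with TMM. By library size only, 2 enzyme genes were higher and 5 lower; with either of the other 2, 4 were higher and 3 lower. Sptlc2 and Asah1 were higher and Sptlc1 was lower under every scaling, filter, tool and left-out library that was tried. The rises of Cers6, Smpd1, Ugcg and Sgms1 were each lost under at least 1 scaling, as given with each gene below.

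**Figure D1:**
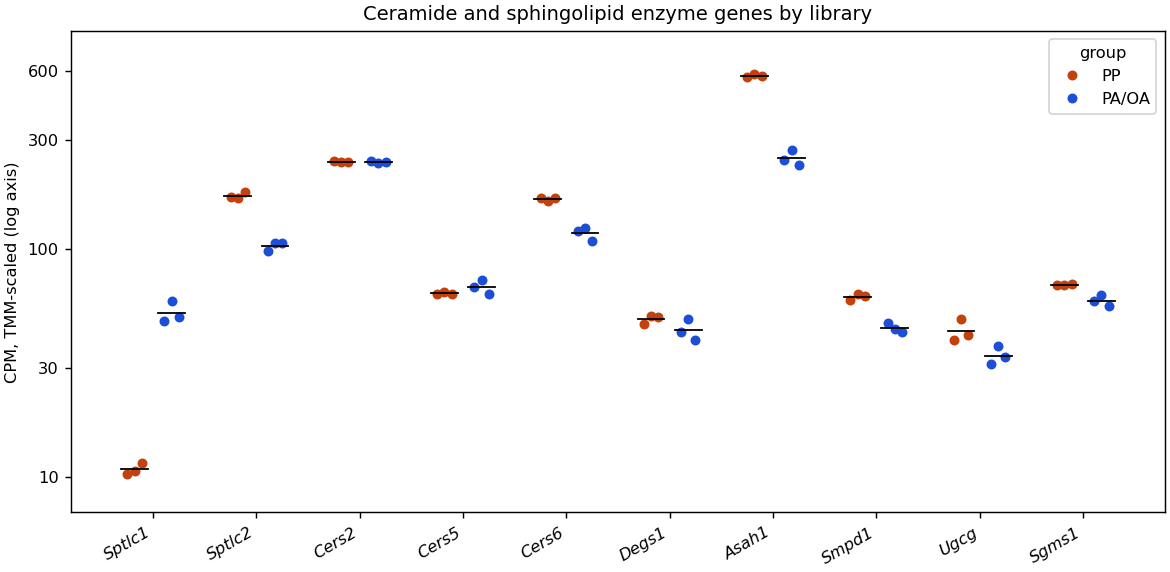
CPM with TMM scaling of the 10 enzyme genes on a log axis, with 1 point per library (3 PP, 3 PA/OA) and a bar at the group mean. The PP points of Sptlc1 lie between 10.3 and 11.5 CPM, far below its PA/OA points, those of Asah1 lie well above theirs, and the points of Cers2 coincide.

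Serine palmitoyltransferase, the enzyme that commits palmitoyl-CoA to sphingolipids, needs the proteins of Sptlc1 and Sptlc2 together, and their mRNAs went opposite ways. Sptlc1 (chromosome 13, 53332748 to 53377397, minus strand, build mm10) had 10.3, 10.6 and 11.5 CPM in PP libraries, against 48.1, 58.9 and 50.4 CPM in PA/OA libraries. All 3 PP libraries were low and close together, and the groups were far apart. Its mean was 10.8 ± 0.611 CPM in PP and 52.5 ± 5.69 CPM in PA/OA (SD, n = 3 each), 4.86-fold lower in PP. The log2 fold change was -2.28 ± 0.10 (SE; adjusted p = 4.41e-15, edgeR), and 1684 of the 15718 genes tested had a lower one. Over all alternatives it lay between -2.71 and -2.19. The fall rested on 244 to 315 counts per PP library and 1411 to 1770 counts per PA/OA library. No exon of another annotated gene overlaps its exons.

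Sptlc2 (chromosome 12, 87305058 to 87388355, minus strand), which codes for the catalytic subunit, had 168, 167 and 178 CPM in PP libraries, against 97.9, 106 and 106 CPM in PA/OA libraries. The groups did not overlap. It was 1.66-fold higher in PP, a log2 fold change of 0.73 ± 0.06 (SE; adjusted p = 1.11e-10, edgeR), which was 0.30 with library size only and 0.34 after the abundance trend was taken out. A ratio of both subunit genes within a library does not depend on a scaling that multiplies all genes of the library by the same factor. Removal of the abundance trend, which shifts genes by different amounts, was not applied to ratios. Per length, there was 7.18, 6.88 and 6.81 times as much Sptlc2 as Sptlc1 mRNA in the PP libraries, and 0.891, 0.786 and 0.919 times as much in the PA/OA libraries. The subunit mRNAs were thus at similar levels in PA/OA cells and far apart in PP cells. The log2 ratio differed by 3.01 (exact two-sided permutation p = 0.1, the smallest that 3 against 3 libraries allow; adjusted p = 0.14 over 7 ratios).

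Promoter sequences of these genes are shown because the pair went opposite ways. Each line is the 250 bases before the RefSeq start (build GRCm38.p6, the assembly of mm10), 5′ to 3′ on the gene's strand (minus for both), at chr13:53377362-53377611 for Sptlc1 and chr12:87388356-87388605 for Sptlc2. The 3′ end of the Sptlc1 window lies inside the gene span of the count table, whose start is further upstream. Capitals mark the GC box GGGCGG read on either strand (CCGCCC), the letters that SP-family factors are known to bind.
Sptlc1: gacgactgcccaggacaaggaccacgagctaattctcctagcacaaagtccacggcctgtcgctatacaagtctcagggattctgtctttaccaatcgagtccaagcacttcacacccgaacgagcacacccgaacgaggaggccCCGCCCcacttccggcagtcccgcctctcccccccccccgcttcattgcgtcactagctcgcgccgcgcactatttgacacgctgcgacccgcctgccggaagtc
Sptlc2: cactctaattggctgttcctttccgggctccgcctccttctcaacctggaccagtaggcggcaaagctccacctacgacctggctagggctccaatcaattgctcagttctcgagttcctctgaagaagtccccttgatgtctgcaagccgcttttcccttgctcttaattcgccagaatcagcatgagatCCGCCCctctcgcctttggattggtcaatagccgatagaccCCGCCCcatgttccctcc
The Sptlc1 window held 1 GC box, starting 105 bases before the start, and the Sptlc2 window held 2, starting 59 and 18 bases before it. A GC box stood in 32.7% of 32851 RefSeq promoter windows of the same length. Neither window held the E-box core CACGTG, a palindrome that MYC, clock and TFEB-family factors are known to bind and that 6.02% of all windows held. Of the 9 enzyme genes matched by symbol to the promoter table (all but Asah1), 7 had a GC box and 3 an E-box core (Cers2, Cers6 and Degs1) in the window nearest the gene's annotated start. The shares over all windows count every window of 27025 genes, expressed here or not, and not only 1 window per gene. They are thus no like background for the enzyme genes, and enrichment was not tested. Such matches describe the letters and not binding.

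Of 4 tested genes that restrain or assist serine palmitoyltransferase, 1 was higher, 1 lower and 2 did not pass the test. Ormdl3 (chromosome 11, 98581256 to 98587368), which codes for a membrane protein that inhibits the enzyme when ceramide is plentiful, had 137, 147 and 131 CPM in PP libraries, against 24.2, 25.2 and 24.6 CPM in PA/OA libraries. It was 5.62-fold higher in PP (log2 fold change 2.49 ± 0.07, SE; adjusted p = 3.78e-18, edgeR), and the log2 fold change was 2.06 to 2.55 over the alternatives. Its relatives had no rise past the test. Ormdl1 did not pass the test (-0.07, adjusted p = 0.524, edgeR), but had -0.51 with library size only and -0.31 with upper-quartile scaling, where it passed the test as lower, and 0.030 with the abundance trend removed. Ormdl2 fell by 0.40 (adjusted p = 0.0208, edgeR), a call lost without PP replicate 1 (-0.33), PP replicate 2 (-0.36) or PA/OA replicate 3 (-0.20) and with the abundance trend removed (-0.18), and 1114 of its 1670 exonic bases lie under exons of Dnajc14 on the other strand. Per length, Ormdl3 made up 87.5% ± 0.97 of the summed ORMDL mRNA in PP and 50.8% ± 3.5 in PA/OA cells (SD, n = 3 each). The sum itself was 72.5 ± 3.61 CPM per kilobase in PP and 22.3 ± 1.48 in PA/OA cells. Sptssa, a small activating subunit, did not pass the test (log2 fold change -0.17, adjusted p = 0.0682, edgeR). Kdsr, the reductase of the next step, fell by 0.69, with 22.8, 21.4 and 21.9 CPM in PP libraries and 35.01, 38.1 and 33.6 CPM in PA/OA libraries (adjusted p = 2.36e-07, edgeR).

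Ceramide synthases attach the acyl chain, and each prefers certain chain lengths: CERS2 uses very long chains, CERS5 and CERS6 palmitoyl chains. Cers2 (chromosome 3, 95314791 to 95323599, plus strand) had 242, 240.4 and 239.5 CPM in PP libraries, against 243, 239 and 239 CPM in PA/OA libraries. Its libraries overlapped, with a log2 fold change of 0.0019 and a 95% interval from -0.10 to 0.11 (adjusted p = 0.973, edgeR). Cers2 passed as lower in PP in 3 settings: -0.43 by library size (adjusted p = 1.03e-07), -0.24 by upper quartile (adjusted p = 0.000207) and -0.49 with the abundance trend removed (adjusted p = 1.32e-08, edgeR in each). Exons of Setdb1 and 6330562C20Rik lie over 219 of its bases on the other strand, and no use of strand in counting is given in the sources used here.

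Cers5 (chromosome 15, 99734881 to 99772885, minus strand) had 63.7, 64.9 and 63.6 CPM in PP libraries, against 68.2, 73.1 and 63.4 CPM in PA/OA libraries. The groups overlapped, with a log2 fold change of -0.09 (95% interval -0.23 to 0.05; adjusted p = 0.227, edgeR). It passed as lower with library size only (-0.53), upper-quartile scaling (-0.33), the abundance trend removed (-0.36) and among protein-coding genes alone (-0.17). Cers6 (chromosome 2, 68861441 to 69114282, plus strand) had 167, 162 and 167 CPM in PP libraries, against 119.5, 124 and 108 CPM in PA/OA libraries. Its groups did not overlap and it was 1.41-fold higher in PP (log2 fold change 0.50 ± 0.06, SE; adjusted p = 1.01e-07, edgeR). That call was lost with library size only (0.061, adjusted p = 0.349) and with the abundance trend removed (0.091, adjusted p = 0.155, edgeR).

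Within a library, free of any factor common to all its genes, Cers6 stood higher relative to Cers2 and Cers5 in all PP libraries than in any PA/OA library. Per length, Cers6 stood at 0.285, 0.280 and 0.288 times Cers2 in PP libraries and at 0.204, 0.214 and 0.188 times Cers2 in PA/OA libraries, and the groups did not overlap. The log2 ratio of Cers6 over Cers2 differed by 0.50 and that of Cers6 over Cers5 by 0.59 (each exact permutation p = 0.1 and adjusted p = 0.14). The ratio of Cers5 over Cers2 overlapped between groups, with a difference of -0.09 (exact permutation p = 0.3). Of the summed level of these 3 genes per length, Cers2 held 64.1% ± 0.12 in PP and 66.8% ± 1.5 in PA/OA cells (SD, n = 3 each). Cers5 held 17.7% ± 0.24 in PP and 19.7% ± 0.97 in PA/OA cells, and Cers6 held 18.2% ± 0.27 in PP and 13.5% ± 0.60 in PA/OA cells. Cers1 and Cers4 had too few counts to be tested, and Cers3 was under 1 CPM.

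Degs1 (chromosome 1, 182275772 to 182282804, minus strand), the desaturase that turns dihydroceramide into ceramide, had 46.8, 50.8 and 50.4 CPM in PP libraries, against 43.2, 49.3 and 39.9 CPM in PA/OA libraries. The groups overlapped through PA/OA replicate 2. The log2 fold change was 0.16, with a 95% interval from -0.0052 to 0.33 (adjusted p = 0.0737, edgeR). Degs1 passed as higher without PP replicate 1 (0.22, adjusted p = 0.0332) or without PA/OA replicate 2 (0.25, adjusted p = 0.00713), and as lower by library size (-0.27, adjusted p = 0.00398, edgeR). Degs2, a relative that also hydroxylates, was at 0.191 ± 0.0395 CPM in PP and 1.48 ± 0.472 CPM in PA/OA (SD, n = 3 each). It passed the filter on low counts only through its PA/OA counts and thus had to be lower in PP, so no test is given.

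The lysosomal enzyme genes of the list were higher in PP. Asah1 (chromosome 8, 41340197 to 41374773, minus strand) codes for acid ceramidase, which splits ceramide into sphingosine and a fatty acid. It had 568, 586.5 and 570.0 CPM in PP libraries, against 246, 271.5 and 233 CPM in PA/OA libraries. The groups were far apart, and Asah1 had the highest level per length of the 10 genes in all 6 libraries. It was 2.30-fold higher in PP (log2 fold change 1.20 ± 0.06, SE; adjusted p = 3.56e-14, edgeR), and 0.76 on the log2 scale with library size only or 0.64 with the abundance trend removed. Against Degs1, which makes ceramide, Asah1 stood per length at 9.26, 8.82 and 8.65 in PP libraries and at 4.35, 4.21 and 4.47 in PA/OA libraries. That log2 ratio differed by 1.04 (exact permutation p = 0.1, adjusted p = 0.14). Removal of the abundance trend was not applied to it, and would lessen the difference, as Asah1 then had 0.64 and Degs1 -0.027.

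Smpd1 (chromosome 7, 105554360 to 105558389, plus strand) codes for acid sphingomyelinase, which frees ceramide from sphingomyelin in lysosomes. It had 59.4, 63.2 and 62.3 CPM in PP libraries, against 47.3, 44.55 and 43.05 CPM in PA/OA libraries. The groups did not overlap and Smpd1 was 1.37-fold higher in PP (log2 fold change 0.46 ± 0.07, SE; adjusted p = 4.04e-06, edgeR). With library size only its log2 fold change was 0.020 (adjusted p = 0.804, edgeR). The call of Smpd1 was thus lost in 1 of 17 settings and that of Asah1 in none.

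At the Golgi, Ugcg and Sgms1 draw on the same ceramide. Ugcg (chromosome 4, 59189257 to 59222833, plus strand), the glucosylceramide synthase gene, had 39.8, 49.0 and 41.7 CPM in PP libraries, against 31.4, 37.3 and 33.4 CPM in PA/OA libraries. PP replicate 2 was high, and the groups did not overlap. Ugcg was 1.28-fold higher (log2 fold change 0.36 ± 0.09, SE; adjusted p = 0.00116, edgeR), a call lost with upper-quartile scaling (0.12, adjusted p = 0.233) and with library size only (-0.081, adjusted p = 0.407, edgeR). Sgms1 (chromosome 19, 32122727 to 32389714, minus strand), a sphingomyelin synthase gene, had 69.4, 69.2 and 70.2 CPM in PP libraries, against 58.8, 62.6 and 56.4 CPM in PA/OA libraries. It was 1.17-fold higher, a log2 fold change of 0.23 ± 0.06 (SE; adjusted p = 0.003, edgeR). Sgms1 passed as lower by library size (-0.20, adjusted p = 0.00734), and had -0.0068 with upper-quartile scaling and -0.035 with the abundance trend removed. Exons of 2700046G09Rik overlap 10 of its bases.

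Within a library, the log2 ratio of Ugcg over Sgms1 overlapped between the groups, with a difference of 0.12 (exact permutation p = 0.5). The log2 ratio of Smpd1, which breaks sphingomyelin, over Sgms1, which makes it, was 0.22 higher in PP without overlap (exact permutation p = 0.1, adjusted p = 0.14).

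**Figure D2:**
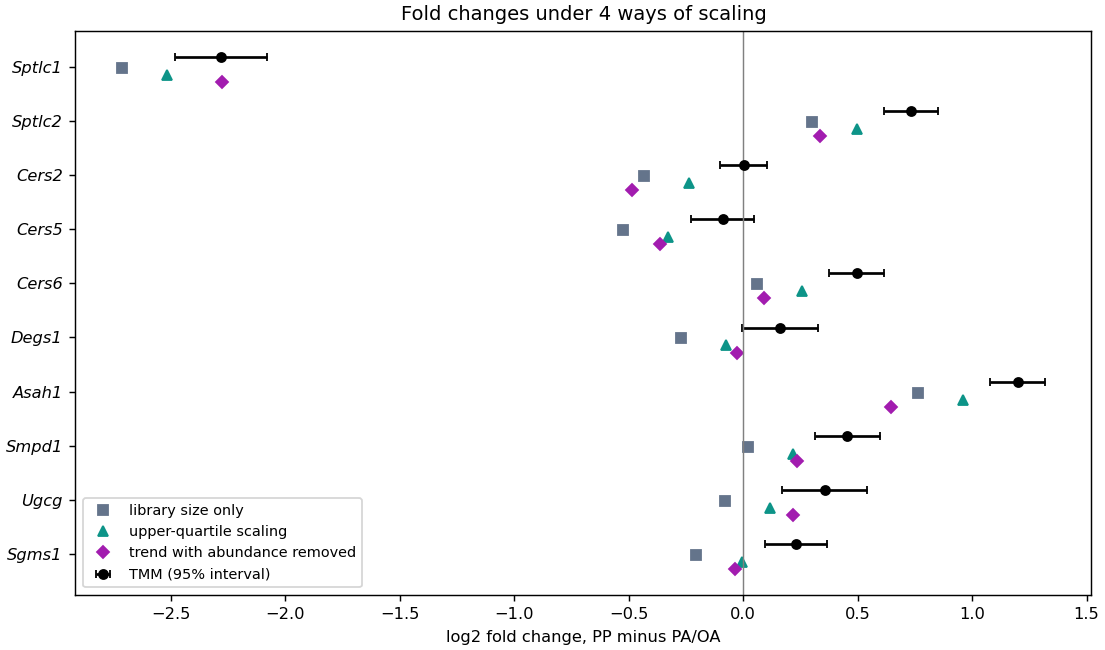
Log2 fold change (PP minus PA/OA) of each enzyme gene, with the 95% interval for TMM scaling (circles) and the values with library size only (squares), upper-quartile scaling (triangles) and the abundance trend removed (diamonds). Sptlc1 lies left of 0 and Sptlc2 and Asah1 right of 0 with every marker, while the markers of Degs1, Ugcg and Sgms1 fall on both sides. Cers2 lies at 0.0019 with TMM and left of 0 with every other marker.

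**Figure D3:**
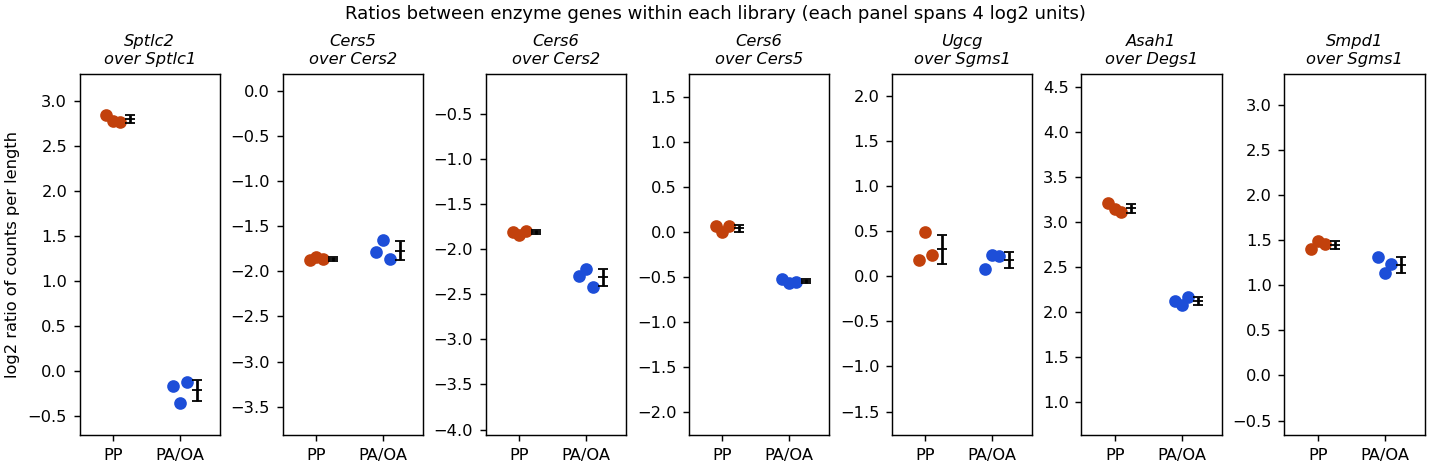
Log2 ratio of counts per length between pairs of enzyme genes in each of 3 PP and 3 PA/OA libraries, with group mean and SD beside the points; every panel spans the same range. The ratio of Sptlc2 over Sptlc1 differs by 3.01 between the groups and that of Asah1 over Degs1 by 1.04, and the ratio of Ugcg over Sgms1 overlaps.

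In the level per length, the order of the 10 genes in PP cells was Asah1 first (167.5, 173 and 168 CPM per kilobase), then Cers2 (65.9, 65.4 and 65.2), then Sptlc2 (20.8, 20.6 and 22.0). Cers5, Cers6, Degs1 and Smpd1 followed between 17.8 and 19.6 CPM per kilobase with ranges that overlap, then Ugcg (7.63 to 9.41), Sgms1 (6.72 to 6.82) and Sptlc1 (2.89 to 3.22). In PA/OA cells Asah1 (72.5, 80.1 and 68.9) was again first and Cers2 (66.1, 65.05 and 65.1) next, close behind it. There Sptlc1, at 13.5 to 16.6 CPM per kilobase, overlapped Cers6 (12.2 to 13.95), Smpd1 (12.9 to 14.2) and Degs1 (15.4 to 19.0), with Sptlc2 (12.1 to 13.04) just below it. Cers5 (17.9 to 20.6) overlapped Degs1 and stood above the rest of these, and Ugcg (6.03 to 7.16) and Sgms1 (5.48 to 6.08) came last. Sptlc1 was thus last of the 10 in PP cells and in the middle in PA/OA cells. Lengths are the summed exons of each gene model, which can exceed the transcript these cells use.

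Beyond the 10 genes, a list of 58 other sphingolipid genes had 42 that passed the filter on low counts, of which 18 were higher, 15 lower and 9 not past the test, with a median log2 fold change of -0.0031. Over all genes 75.0% passed, 35.1% as higher and 39.9% as lower, so these counts are near the background. Among the tested genes 3 (Cers3, Degs2 and Sgpp2) entered through the counts of the PA/OA group alone and so had to be lower in PP, and the other 16 genes held at most 12 counts in any library. Those 16 were Sptlc3, Sptssb, Cers1, Cers4, Fa2h, Acer1, Acer2, Smpdl3a, Smpdl3b, Ugt8a, Gal3st1, A4galt, St8sia1, S1pr1, S1pr3 and S1pr4. The counts depend on the scaling as well: scaled by library size, 14 were higher and 23 lower, where 3235 of all genes were higher and 8910 lower.

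**Figure D4:**
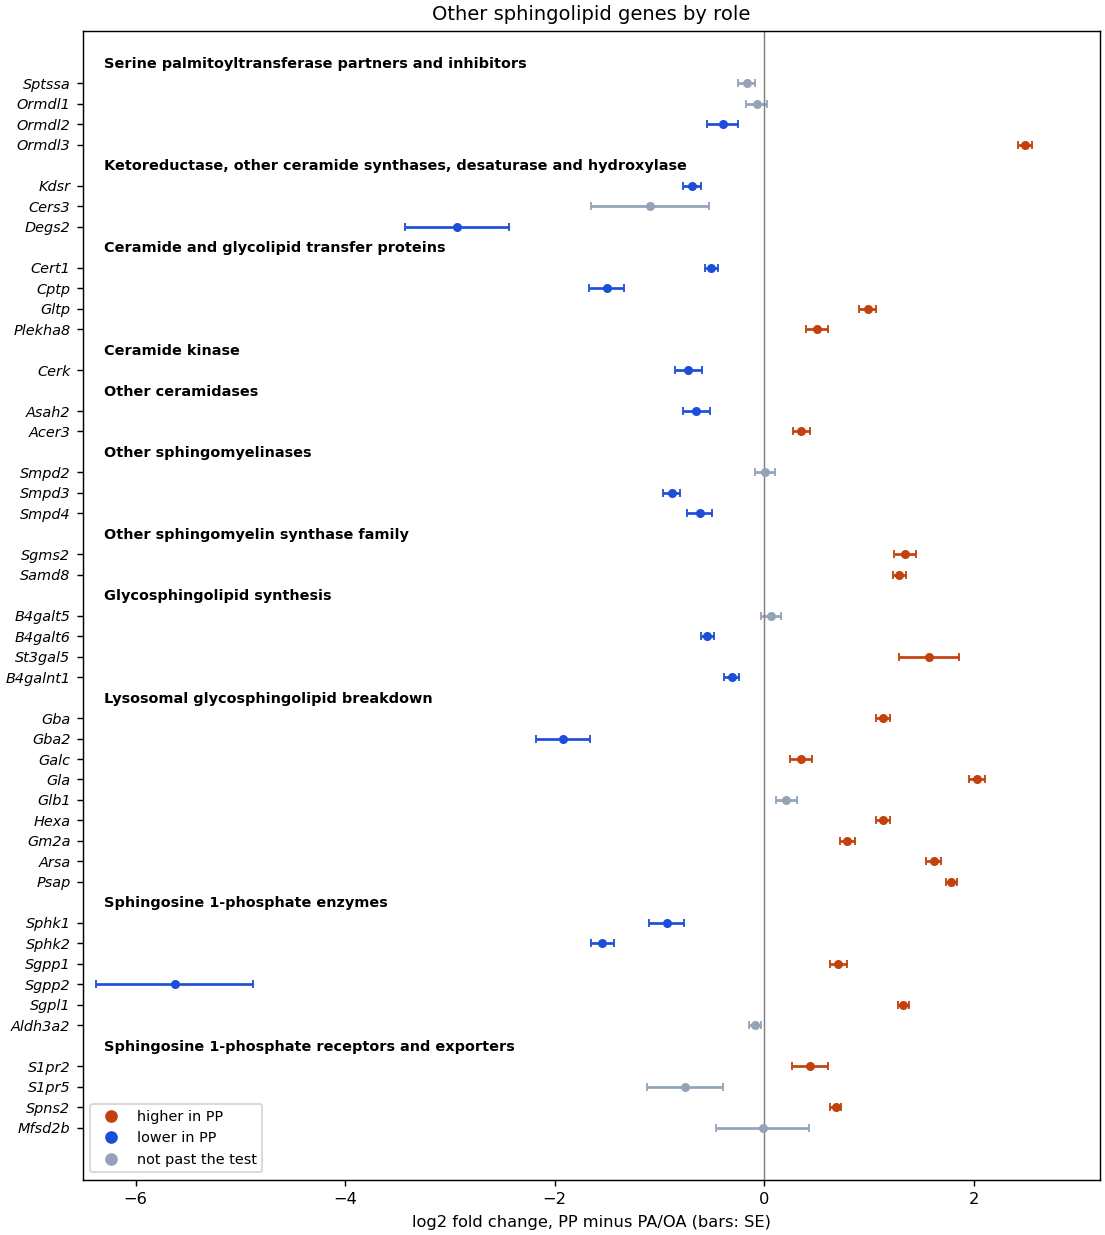
Log2 fold change (PP minus PA/OA, TMM scaling; bars are SE) of the 42 other sphingolipid genes tested, grouped by role and coloured by the result of the test. Cers3, Degs2 and Sgpp2 entered through the counts of the PA/OA group alone, so the place and colour of these 3 genes are no result. The genes of lysosomal breakdown lie mostly right of 0, both sphingosine kinase genes lie left of it, and Ormdl3 has the highest value at 2.49.

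Genes of glycosphingolipid breakdown were mostly higher in PP, with 7 of 9 higher, 1 lower and 1 not past the test, and a median log2 fold change of 1.13. The background over all genes was 35.1% higher and 39.9% lower, and its median log2 fold change -0.09. Over the settings tried, 6 to 8 of the 9 were higher. Psap, whose product is cut into the saposins that present lipids to lysosomal enzymes, including acid ceramidase, had 976, 997 and 960 CPM in PP libraries, against 288, 275 and 288 CPM in PA/OA libraries (log2 fold change 1.79 ± 0.05, SE; adjusted p = 1.07e-17, edgeR). It ran from 1.18 to 1.82 over the alternatives, all past the test. Gla, the alpha-galactosidase gene, rose by 2.03 and Arsa, the arylsulfatase gene for sulfatide, by 1.61. The 1 that fell, Gba2 (log2 fold change -1.92), codes for a glucosylceramidase outside the lysosome and is named here because of its value. Exons of C230037L18Rik on the other strand lie over 690 bases of Arsa. Of other lysosomal genes in the lists, Asah1 rose by 1.20, as did Cd68 of the macrophage list by 3.30, named after its value was seen. Smaller changes were those of Smpd1 (0.46), Galc (0.35) and Glb1 (0.21, not past the test). A rise of lysosomal genes in general was not tested.

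Sphingosine, the product of ceramidase, is phosphorylated by sphingosine kinases, and its phosphate is either recycled by phosphatases or cleaved for good by the lyase of Sgpl1. Both kinase genes fell. Sphk2 had 9.80, 10.6 and 11.7 CPM in PP libraries, against 29.3, 28.9 and 35.8 CPM in PA/OA libraries (log2 fold change -1.55 ± 0.11, SE; adjusted p = 3.24e-11, edgeR). Exons of Dbp and Rpl18 on the other strand lie over 912 of its bases. Sphk1 had 5.09, 5.18 and 3.86 CPM in PP libraries, against 8.07, 8.76 and 10.1 CPM in PA/OA libraries, a fall of the log2 value by 0.93 (adjusted p = 4e-05, edgeR). Sgpl1 had 243, 251 and 251 CPM in PP libraries, against 102, 100.3 and 94.1 CPM in PA/OA libraries, 2.51-fold higher in PP (adjusted p = 2.88e-15, edgeR). The phosphatase gene Sgpp1 rose by 0.70 (adjusted p = 8.42e-08, edgeR). Its relative Sgpp2 held 2 counts over the PP libraries and 131 over the PA/OA libraries. Sgpp2 passed the filter on low counts only through its PA/OA counts, so no test is given. Sphk1, Sphk2, Sgpp1 and Sgpl1 kept their direction and their call under every alternative tried.

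The carriers and converters of ceramide went both ways. Cert1 (Col4a3bp in the table), which brings ceramide to the sphingomyelin synthases, fell by 0.50, with 60.3, 58.6 and 65.7 CPM in PP libraries and 86.0, 90.7 and 85.4 CPM in PA/OA libraries (adjusted p = 3.67e-07, edgeR). Cptp, a carrier of ceramide 1-phosphate, fell by 1.50, and Cerk, the kinase gene that makes that lipid, by 0.73. Gltp, a glycolipid carrier gene, rose by 0.99. Both relatives of Sgms1 rose: Sgms2 had a log2 fold change of 1.34 ± 0.10 and Samd8, whose enzyme makes a ceramide phosphoethanolamine, 1.29 ± 0.06 (SE; adjusted p = 1.13e-10 and 2.51e-14, edgeR). Of the summed level of these 3 genes per length, Sgms1 held 18.7% ± 0.38 in PP and 32.5% ± 1.1 in PA/OA (SD, n = 3 each). Among other sphingomyelinases Smpd3 fell by 0.88 and Smpd4 by 0.62, and Smpd2 did not pass the test (log2 fold change 0.011, adjusted p = 0.924, edgeR). Of the other ceramidases Asah2, which acts at the cell surface, fell by 0.65 and Acer3 rose by 0.35; the call of Acer3 was lost with library size only and upper-quartile scaling. Only mRNA was measured, so enzyme activity and ceramide levels were not tested.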

How the data were processed

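RNA of 6 AML12 libraries, 3 labelled PP and 3 PA/OA, was sequenced. The authors deposited raw counts per gene, whole numbers with 1 column per library, made with featureCounts on build mm10 per the submitters' processing notes, which also name DESeq2 1.16.1 without its role. The deposited gene lengths equal the summed exons of GENCODE M21 for all 10 genes but Sgms1. Aligner and strand setting were not given in the sources used here, so values of genes with overlapping exons are uncertain. Besides the overlaps given with the genes, exons of other genes lie over 905 bases of Smpd2, 411 of Ormdl1, 292 of Gba2 and 278 of Degs2. They also lie over 267 bases of Cert1, 248 of Sgpp2, 247 of Smpd3, 192 of Sphk1, 131 of Spns2, 80 of Sptssa and 57 of Cerk. Low counts (1 to 20) were even in 57.1% to 61.5% of cases per library.

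The fit used edgeR 4.0.16 in R 4.3.3 (filterByExpr, TMM, glmQLFit and glmQLFTest, Benjamini-Hochberg over 15718 genes, 0.05, two-sided). The SE was taken from the fold change and F. CPM per kilobase and ratios (pseudocount 0.5, exact permutation test) used the deposited lengths. The script was tested on simulated data. Pairs of same-group libraries gave a chi-square of 3.16 to 5.05 per gene on counts divided by 2, above sampling noise. Each library was treated as 1 replicate. Such spread cannot show whether the libraries came from separate cultures, and it may be technical. No batch is given in the labels.

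The enzyme genes, lists, tests and alternatives were chosen with earlier results of these data known. Named among other sphingolipid genes are up to 3 per role with the smallest p, Ormdl1 to Ormdl3, Cert1, Sphk1, Sphk2 and Sgpl1, and those not tested; Sptssa, Smpd2, Cers3, Gba2 and Sgpp2 were added after their values were seen. 1 gene was left out of the list of other sphingolipid genes and is not reported here. Markers named in the text were picked after their values were seen. Alternatives were scaling by library size only, by upper quartile or by DESeq2's size factors, filtering at 1 CPM in 3 libraries or not at all, DESeq2 1.42.0 and limma-voom (limma 3.58.1) as tools, the replicate number as a block, each library's lowess trend with abundance removed (span 0.4), protein-coding genes only, counts divided by 2 and rounded up, each library left out, and a pseudocount of 5 for ratios.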

Additional observations from a re-analysis of the deposited data

How the results depend on the processing

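With library size only, 2 enzyme genes were higher and 5 lower, and 23 other sphingolipid genes were lower. Lower enzyme genes numbered 3 with upper-quartile scaling, 3 with the abundance trend removed and 2 among protein-coding genes only. The log2 fold change of Cers2 turned negative in 8 settings: -0.43 with library size only, -0.24 with upper-quartile scaling, -0.49 with the trend removed, -0.0061 with DESeq2's size factors and -0.0061 with DESeq2 itself, -0.052 with at least 1 CPM in 3 libraries, -0.080 among protein-coding genes and -0.029 with counts divided by 2. Library size only also turned Degs1 (-0.27), Ugcg (-0.081), Sgms1 (-0.20), Acer3 (-0.080) and S1pr2 (-0.00048). Upper-quartile scaling turned Degs1 (-0.076) and Sgms1 (-0.0068), and removing the trend turned Degs1 (-0.027), Sgms1 (-0.035) and, upward, Ormdl1 (0.030). A scaling shifts all genes together, so genes with small changes cross 0; the cause of the other reversals was not tested. Among genes called in all 17 alternatives, the log2 fold change ran from 0.55 to 1.05 for Gltp, -1.13 to -0.64 for Kdsr, -0.94 to -0.45 for Cert1, 0.27 to 0.77 for Sgpp1, 0.25 to 0.71 for Spns2, -1.37 to -0.62 for Sphk1 and 0.85 to 1.35 for Samd8. The 7 ratios kept their direction with a pseudocount of 5, with the replicate block and with each library left out. In these settings the difference for Sptlc2 over Sptlc1 lay between 2.94 and 3.06. The other alternatives, such as removal of the abundance trend, were not applied to ratios. Leaving out 1 library left 6 to 7 enzyme genes higher and 1 lower, and 11374 to 11934 genes past the threshold.

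Same-numbered libraries did not deviate together (correlations of 0.00517, 0.00304 and -0.0234), so the numbers are not read as pairs. With the replicate block 6 enzyme genes were higher, 1 lower and 11515 of all genes passed, and paired ratios gave exact sign-flip p of 0.25 or more, the smallest that 3 pairs allow. Depth did not limit the enzyme genes, which held 244 counts or more in every library, but did limit the 16 sphingolipid genes not tested.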

Other observations

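Genes of glycosphingolipid synthesis past glucosylceramide went both ways. B4galt6, which makes lactosylceramide, fell by 0.54 on the log2 scale, and B4galnt1, a ganglioside synthase gene, fell by 0.31. Exons of Slc26a10 on the other strand lie over 715 of the 3454 exonic bases of B4galnt1. St3gal5, which makes a simple ganglioside, rose by 1.58 (adjusted p = 3.93e-05, edgeR). Its level was 4.23 ± 0.749 CPM in PP and 1.43 ± 0.547 CPM in PA/OA cells (SD, n = 3 each). Spns2, an exporter gene of sphingosine 1-phosphate, rose by 0.68, with 163, 166 and 166 CPM in PP libraries and 106.5, 101 and 101 CPM in PA/OA libraries (adjusted p = 1.72e-10, edgeR). Of the receptor genes S1pr2 rose by 0.43 (adjusted p = 0.0257, edgeR), a call lost without PA/OA replicate 1 (0.43, adjusted p = 0.0586) or PA/OA replicate 2 (0.41, adjusted p = 0.0664) and with library size only, upper-quartile scaling or protein-coding genes only.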
